A study of Mus musculus with 2 samples.

Results

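Axon guidance ligands and receptors were described here in a map of UPF1 binding to RNA in mouse neural progenitor cells. The set was defined by gene symbol, and it was chosen with earlier results of these data known. It took protein-coding loci of the RefSeq annotation of GRCm38. The names were those of semaphorins of classes 3 to 7, plexins, neuropilins, ephrins, Eph receptors, Slits, Robos, netrins and Unc5 receptors. The set held 68 of 21900 protein-coding loci, 35 ligands and 33 receptors, and 47 of the 68 had at least 1 UPF1 cluster on their own strand. The study used enhanced crosslinking and immunoprecipitation (eCLIP), in which protein and RNA are crosslinked, the RNA is trimmed with RNase, and the fragments that come down with a protein are sequenced beside an input library. There was 1 immunoprecipitate, made with an antibody against UPF1, and 1 input. Both came from cultured neural progenitor cells of mouse cortex with the genotype Upf2fl/fl, and both are labelled MOCK, which the labels do not explain. Every library therefore carries the loxP-flanked Upf2 allele, and the labels give no age, clone or number of animals.

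Axon guidance genes encode cues and the receptors that read them. Semaphorins signal through plexins, with neuropilins as co-receptors for the secreted class. Ephrins bind Eph receptor tyrosine kinases on neighbouring cells, Slits bind Robos, and netrins bind Dcc and Unc5 receptors. In the developing cortex these systems also act on progenitors and migrating neurons. UPF1 is the RNA helicase that drives nonsense-mediated decay, the pathway that removes mRNAs whose translation ends too early. It also binds mRNAs that are not decay targets, mostly along the stretch after the stop codon.

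UPF1 was bound above input on 18 of the 47 guidance genes with a cluster. A cluster is a stretch of RNA in which immunoprecipitate reads piled up, and the authors gave each one a log2 fold over input and a −log10 p. A cluster was called enriched at a log2 fold of at least 3, which is 8-fold, and a −log10 p of at least 3. The 18 genes made 38.3% of those with a cluster (Wilson 95% interval 25.8 to 52.6). Over all 9408 protein-coding genes with a cluster the share was 34.9%, inside that interval. Of 973 clusters on the members, 83 were enriched, or 8.53%, against 11.7% of the 119214 clusters on all protein-coding genes. The median over genes of the highest log2 fold was 2.88 in the members and 2.56 in all protein-coding genes, and the median number of clusters per gene was 6 in both. By role, 8 of 24 ligands with a cluster were enriched (33.3%, interval 18.0 to 53.3) and 10 of 23 receptors (43.5%, interval 25.6 to 63.2), so the intervals overlap. With 1 library of each kind no spread between cultures was measured and no test across genes was made.

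**Figure D1:**
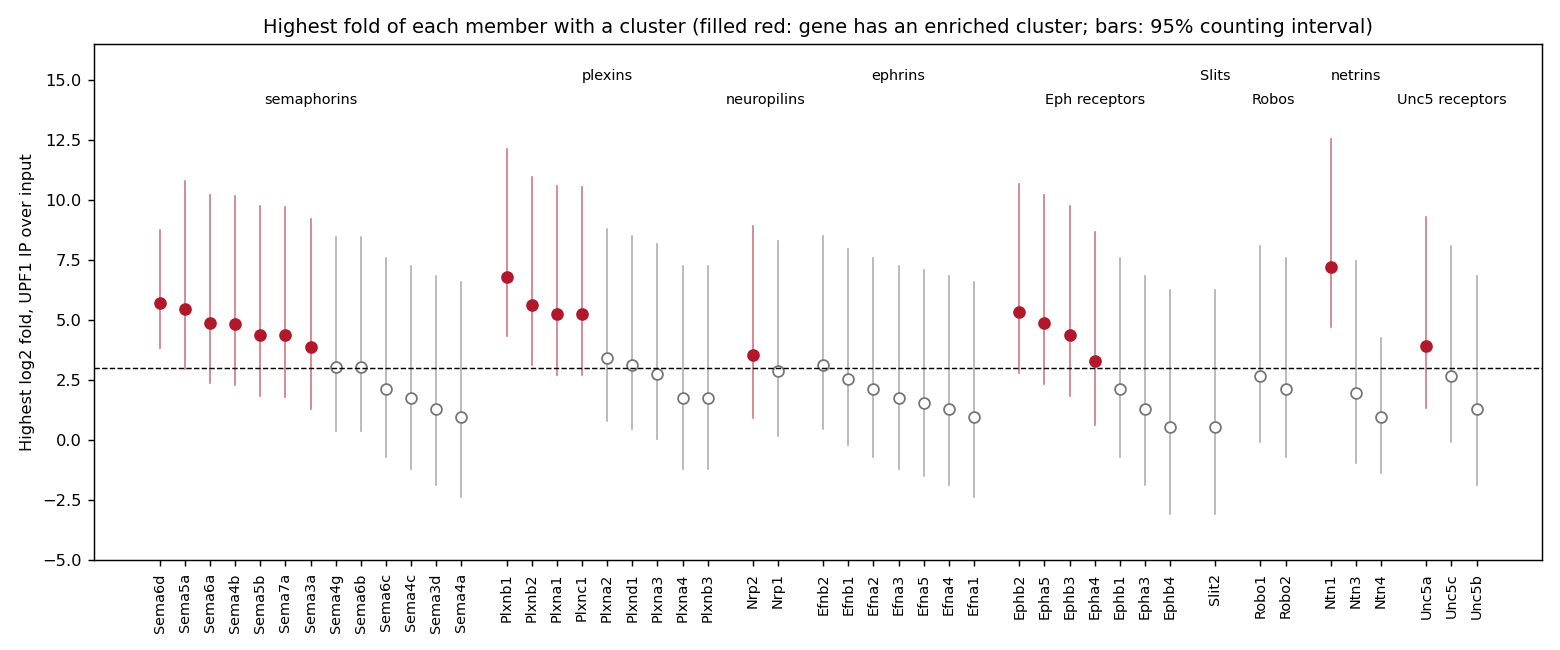
Highest log2 fold of the UPF1 immunoprecipitate over input (y axis) for each of the 47 members with a cluster (x axis, grouped by family), with the 95% counting interval as a bar. Filled red points are the 18 genes with an enriched cluster, from Ntn1 at 7.22 down to Epha4 at 3.30. The Epha4 point and bar are those of a cluster that missed the p threshold, and the enriched cluster of Epha4 had 3.06. Open points are the other 29 genes, and the dashed line is the fold threshold of 3.

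The file holds no library totals. Read counts rebuilt from the folds and p-values put the immunoprecipitate at 2.03 times the reads of the input. An enriched member cluster held a median of 73 immunoprecipitate reads against 1 input read, and a cluster above 0 that was not enriched held 5 against 1. Where the input count is 1, the true count could have been 0. Each fold carries an exact 95% interval (Clopper-Pearson) based on the rebuilt reads, for counting error only. Marker lists were counted beside the label of the cells. Of 9 progenitor markers with a cluster 6 were enriched (66.7%), and so were 2 of 4 neuronal markers (50%). The same held for 4 of 4 astrocyte and 5 of 5 oligodendrocyte markers, where all protein-coding genes had 34.9%. The highest fold was 6.81 for progenitor markers (Slc1a3) and 6.87 for astrocyte markers (Gja1). The lists therefore do not set progenitors apart from glia. None of 13 markers of microglia, endothelium and fibroblasts had a cluster. Pax6, Sox1 and Vim, also progenitor markers, had clusters and no enriched one. A gene without a cluster may be unbound or not expressed, and these files cannot tell which.

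Among the netrins, secreted laminin-related cues, an enriched cluster was called on Ntn1 and not on the others. This is 1 of 3 netrins with a cluster (33.3%, interval 6.15 to 79.2), and the interval holds the 34.9% of all protein-coding genes. Ntn1 encodes netrin-1 (chromosome 11, 68209364 to 68386826, minus strand as taken from its clusters) and had the highest fold of all members. Its best cluster held 303 immunoprecipitate reads against 1 input read, a log2 fold of 7.22 (interval 4.73 to 12.53), 2263 nt from the annotated 3′ end. That interval overlaps the 4.33 to 12.13 of Plxnb1, so the first rank is not settled. In all, 15 of the 40 clusters of Ntn1 were enriched, the most of any member, with folds from 3.69 to 7.22. They covered 1187 nt, and 14 of them lay between 2118 and 3601 nt from the 3′ end. A further cluster 316 nt from the end held 111 reads against 4 (3.77). At the other end of the gene, a cluster centred 73 nt from the annotated start held 50 reads against 6, a log2 fold of 2.03, under the threshold.

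Ntn3 had 1 cluster of its own at 1.98, from 8 reads against 1. A further 3 clusters lay where Ntn3 overlaps Tbc1d24 on the same strand and were given to neither gene. Ntn4 had 5 clusters with a highest fold of 0.98. However, a cluster with a log2 fold of 3.56 lay 215 nt past its annotated 3′ end, outside every locus, so Ntn4 cannot be counted as unbound. Ntn5 had no cluster.

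Of the Unc5 netrin receptors, Unc5a had a single cluster, and it was enriched. It held 31 reads against 1 (log2 fold 3.93, interval 1.34 to 9.28), 741 nt from the 3′ end of the locus (chromosome 13, 54945151 to 55006018). None of the 29 clusters of Unc5c was enriched. The highest, at 2.68, came from 13 reads against 1. Unc5b had 2 clusters and reached 1.30, and Unc5d had none. The enriched share, 1 of 3 genes with a cluster (33.3%), had an interval of 6.15 to 79.2, which holds the 34.9% of all protein-coding genes.

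Semaphorins, the largest family of the set with 20 members, had 13 genes with a cluster and 7 with an enriched one. These were Sema6d, Sema5a, Sema6a, Sema4b, Sema5b, Sema7a and Sema3a, of which Sema3a is secreted, Sema7a is held by a lipid anchor and the others span the membrane. The enriched share of 53.8% had an interval of 29.1 to 76.8, which holds the 34.9% of all protein-coding genes. By clusters 22 of 497 were enriched, or 4.43%, below the 11.7% of all protein-coding genes, and 311 of the 497 lay in Sema6d. Sema6a and Sema6d, which can act as ligands and as receptors, held 12 of the 22.

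Sema6d (chromosome 2, 124089943 to 124667789) had more clusters than any other member. Of the 311, 295 lay over 20000 nt from the 3′ end, and none of those was enriched. The 5 enriched clusters lay between 960 and 1820 nt from the 3′ end. The highest held 212 reads against 2, a log2 fold of 5.70 (interval 3.83 to 8.76). The one 1820 nt from the end, 224 nt wide, had a fold of 3.39 with the authors' −log10 p at its cap of 400, the only member cluster at the cap. The remaining 3 had folds of 3.08, 3.68 and 4.50.

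A separate cluster of Sema6d began beside an annotated internal transcription start. It lay 14146 nt from the 3′ end and held 34 reads against 3, a log2 fold of 2.48 (interval 0.81 to 4.83) with a −log10 p of 3.17, under the fold threshold. Among 75 start windows that RefSeq lists for 59 of the members, 4 were touched by a member cluster. This was the only one of the 4 with a −log10 p of at least 3. The others were the first start of Sema6d (1.44) and the starts of Sema5a (1.98) and Plxna3 (0.71). Ntn1 had no listed window, so its cluster centred 73 nt from the annotated start (−log10 p 3.17) was not counted here. The first 30 bases from the internal start, all inside the cluster, are shown because no other stretch in the reference tables lies under a member cluster with a −log10 p of at least 3 (RefSeq, GRCm38.p6, chr2:124653581-124653610, plus strand, no part marked).
Sema6d internal start: gtagctaagtgggacttctgaggaggggga

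Sema6a (chromosome 18, 47245254 to 47371200) had 7 of 31 clusters enriched, between 766 and 2132 nt from the 3′ end. The highest fold was 4.91, from 61 reads against 1 (interval 2.37 to 10.23), and the most reads, 194 against 5, gave 4.25. A cluster 2821 nt from the end held far more reads, 1365 against 267, but a fold of only 1.33. Depth and fold thus differed along the same 3′ stretch.

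The class 5 semaphorins, which carry thrombospondin repeats, both had an enriched cluster. This share, 2 of 2 (100%), had an interval of 34.2 to 100, which just holds the 34.9% of all protein-coding genes. By clusters 5 of 109 were enriched, or 4.59%, below the 11.7% of all protein-coding genes. All enriched clusters of Sema5a and 1 of the 2 of Sema5b lay away from the annotated 3′ end. Sema5a (chromosome 15, 32244813 to 32696341) had 3 of 53 clusters enriched, at 5734, 6588 and 6825 nt from the end. The highest held 90 reads against 1 (5.47, interval 2.95 to 10.79). The 11 clusters nearer to the end reached 2.98 and none was enriched. Sema5b (chromosome 16, 35541154 to 35664261) had 2 of 56. One lay 495 nt from the end (66 reads against 3, 3.44), and the other 20240 nt from it (43 reads against 1, 4.40, interval 1.85 to 9.74). A deep cluster still nearer, 134 nt from the end, held 677 reads against 65, a fold of 2.36 under the threshold.

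Sema4b, a transmembrane semaphorin, had 3 of 6 clusters enriched within 401 to 880 nt of the 3′ end, with 58 reads against 1 in the highest (4.83, interval 2.30 to 10.16). Sema7a had 1 of 2, 573 nt from the 3′ end, with 42 reads against 1 (4.37, interval 1.81 to 9.71). Sema3a, the repulsive cue that acts through neuropilin-1, had 1 of 10. It lay 2970 nt from the 3′ end, with 30 reads against 1 (3.88, interval 1.29 to 9.23). The clusters of Sema4g and Sema6b reached 3.06, each from 17 reads against 1, and missed the p threshold. Sema6c had 9 clusters and reached 2.15, while Sema4c, Sema3d and Sema4a reached 1.78, 1.30 and 0.98. Sema3b, Sema3c, Sema3e, Sema3f, Sema3g, Sema4d and Sema4f had no cluster.

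All 9 plexins, the semaphorin receptors, had a cluster, and 4 had an enriched one: Plxnb1, Plxnb2, Plxna1 and Plxnc1. The enriched share of 44.4% had an interval of 18.9 to 73.3, which also holds the 34.9% of all. By clusters the plexins had 28 of 131 enriched, or 21.4%, where all protein-coding genes had 11.7%. All 28 were at most 5000 nt from the 3′ end. Plxnb1 and Plxnb2, receptors of class 4 semaphorins, held 16 of them. Whether the plexins differ from other genes was not tested.

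Plxnb1 (chromosome 9, 109093849 to 109119915) had 10 of 35 clusters enriched, at 495 to 1757 nt from the 3′ end, with no other cluster among them. Their folds ran from 3.86 to 6.82. The highest held 230 reads against 1 (interval 4.33 to 12.13), and its neighbours 218 and 161 against 1. Plxnb2 (chromosome 15, 89155546 to 89182018) had 6 clusters, all 6 enriched and all within 612 nt of the 3′ end. The one nearest the end, at 88 nt, had the highest fold of the gene, 5.65 from 102 reads against 1 (interval 3.14 to 10.97). Plxnb3, the third gene of this class, had 5 clusters and reached 1.78.

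Plxna1 (chromosome 6, 89316313 to 89362613), a receptor that pairs with neuropilins, had 10 of 18 clusters enriched between 273 and 2515 nt from the 3′ end. Its highest fold was 5.26, from 78 reads against 1 (interval 2.74 to 10.58). Plxnc1, a receptor for Sema7a (chromosome 10, 94790866 to 94945015), had 2 of 11, with 77 and 55 reads against 1 (5.24 and 4.76), at 1063 and 877 nt. The other plexins of class A were not called. Plxna2 had 38 clusters and reached 3.44 from 22 reads against 1, with a −log10 p of 2.79. Plxna3 and Plxna4 had 7 clusters each and reached 2.78 and 1.78. Plxnd1 had 4 clusters, all in the last 794 nt, and reached 3.15 from 18 reads against 1.

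The neuropilins fell on either side of the threshold. The enriched share, 1 of 2 (50%), had an interval of 9.45 to 90.5, which holds the 34.9% of all protein-coding genes. Nrp2 had 6 clusters, all within 2822 nt of the 3′ end, with folds from 0.98 to 3.56. Of these 1 was enriched, 1577 nt from the end, with 24 reads against 1 (interval 0.94 to 8.92). Nrp1 had 5 clusters within 2173 nt of the end, with folds from 1.98 to 2.88 and 8 to 15 reads against 1, and a distant one at 0.56. The intervals of the best clusters overlap (0.18 to 8.28 in Nrp1), so these genes cannot be ranked.

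Eph receptors, the largest group of receptor tyrosine kinases, had 7 of 14 genes with a cluster and 4 with an enriched one: Ephb2, Epha5, Ephb3 and Epha4. The enriched share of 57.1% had an interval of 25 to 84.2, which holds the 34.9% of all protein-coding genes. By clusters 16 of 156 were enriched, or 10.3%, against 11.7% of all. Of the 16, 3 were at most 5000 nt from the annotated 3′ end (18.8%, where all protein-coding genes had 91.8%), and all 3 belonged to Ephb3. The other 13 lay farther inside their loci, 10 of them in Ephb2.

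Ephb2 (chromosome 4, 136647536 to 136836326, minus strand) had 10 of 54 clusters enriched. All 10 lay in 1 stretch of 1599 nt, from 136653697 to 136655295, which is 6216 to 7693 nt from the outer 3′ end of the locus. Folds of the 10 ran from 3.12 to 5.33, with 24 to 82 immunoprecipitate reads per cluster and 82 against 1 in the highest (interval 2.81 to 10.65). A further cluster in the stretch, with 24 reads against 2 and a fold of 2.56, was not enriched. Only 4 clusters lay nearer to the end, with a highest fold of 1.56. The locus table gives outer ends only, so which Ephb2 transcripts end in or near this stretch was not analysed here.

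Epha5 (chromosome 5, 84054761 to 84417818) had 2 of 74 clusters enriched, 11194 and 11686 nt from the 3′ end, with 60 reads against 1 (4.88, interval 2.35 to 10.21) and 38 against 2 (3.22). The 5 clusters nearer to the end reached 2.88. Epha4 (chromosome 1, 77367182 to 77515107) had 1 of 10 enriched, the farthest from a 3′ end in the whole set. It lay 101247 nt inside the locus, was 262 nt wide and held 153 reads against 9, a fold of 3.06 (interval 2.10 to 4.22). A cluster of Epha4 at 6071 nt had a higher fold, 3.30, but only 20 reads against 1 and missed the p threshold.

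Ephb3 had 3 clusters, all enriched and within 555 nt of the 3′ end (chromosome 16, 21204620 to 21223309). They held 43 reads against 1 (4.40, interval 1.85 to 9.74), 60 against 2 (3.88) and 240 against 8 (3.88). Ephb1 had 11 clusters and reached 2.15, Epha3 had 1 at 1.30, and the 3 of Ephb4 reached 0.56. Epha1, Epha2, Epha6, Epha7, Epha8, Epha10 and Ephb6 had no cluster.

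None of the 7 ephrins with a cluster was enriched. The Wilson interval of this share, the measure used for the other families, ran from 0 to 35.4%, which just holds the 34.9% of all protein-coding genes. A wider limit of 3 counts for a count of 0 gives 42.9% (3 counts of 7). Their 22 clusters were few per gene, with a median of 2. Ephrin-B ligands, which span the membrane, came closest. Efnb2 had 6 clusters and reached 3.15 from 18 reads against 1, and Efnb1 had 7 and reached 2.56 from 12 against 1. The ephrin-A ligands, held by a lipid anchor, had 9 clusters in 5 genes: Efna2 reached 2.15, Efna3 1.78, Efna5 1.56, Efna4 1.30 and Efna1 0.98. Efnb3 had no cluster.

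Slits and Robos, the secreted repellents and their receptors, had no enriched cluster either, but only 1 Slit and 2 Robos had a cluster. The Wilson intervals of these shares reached 79.3% and 65.8%, and so hold the 34.9% of all protein-coding genes. Robo2, with 55 clusters over a locus of 1555468 nt, reached 2.15, and 51 of the 55 lay over 20000 nt from the 3′ end. Robo1 had 20 clusters and reached 2.68 from 13 reads against 1, with its 5 clusters near the 3′ end between 0.98 and 2.68. Slit2 had 2 clusters, both over 20000 nt from the end, and reached 0.56. In Slit1 a single cluster with a fold of 1.78 lay in a locus whose strand was not known from the tables, and it was left out. Slit3, Robo3 and Robo4 had no cluster.

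Enriched clusters of the members gathered near 3′ ends. Of the 83, 66 were at most 5000 nt from the outer 3′ end of the locus (79.5%, Wilson interval 69.6 to 86.8, which treats clusters as independent although those of 1 gene are not). Over all protein-coding genes 12836 of 13977 did, or 91.8%. The 17 others lay in 5 genes, 10 of them in Ephb2, 3 in Sema5a, 2 in Epha5 and 1 each in Sema5b and Epha4. Without Ephb2 the share was 90.4%, against 91.9% of all protein-coding genes without it. Counted by gene, 5 of the 18 enriched members had such a cluster (27.8%), against 376 of 3282 enriched protein-coding genes (11.5%). Ephb2, Sema5a, Epha5 and Epha4 had enriched clusters there only. Distances include introns and run to the outer end of the locus.

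**Figure D2:**
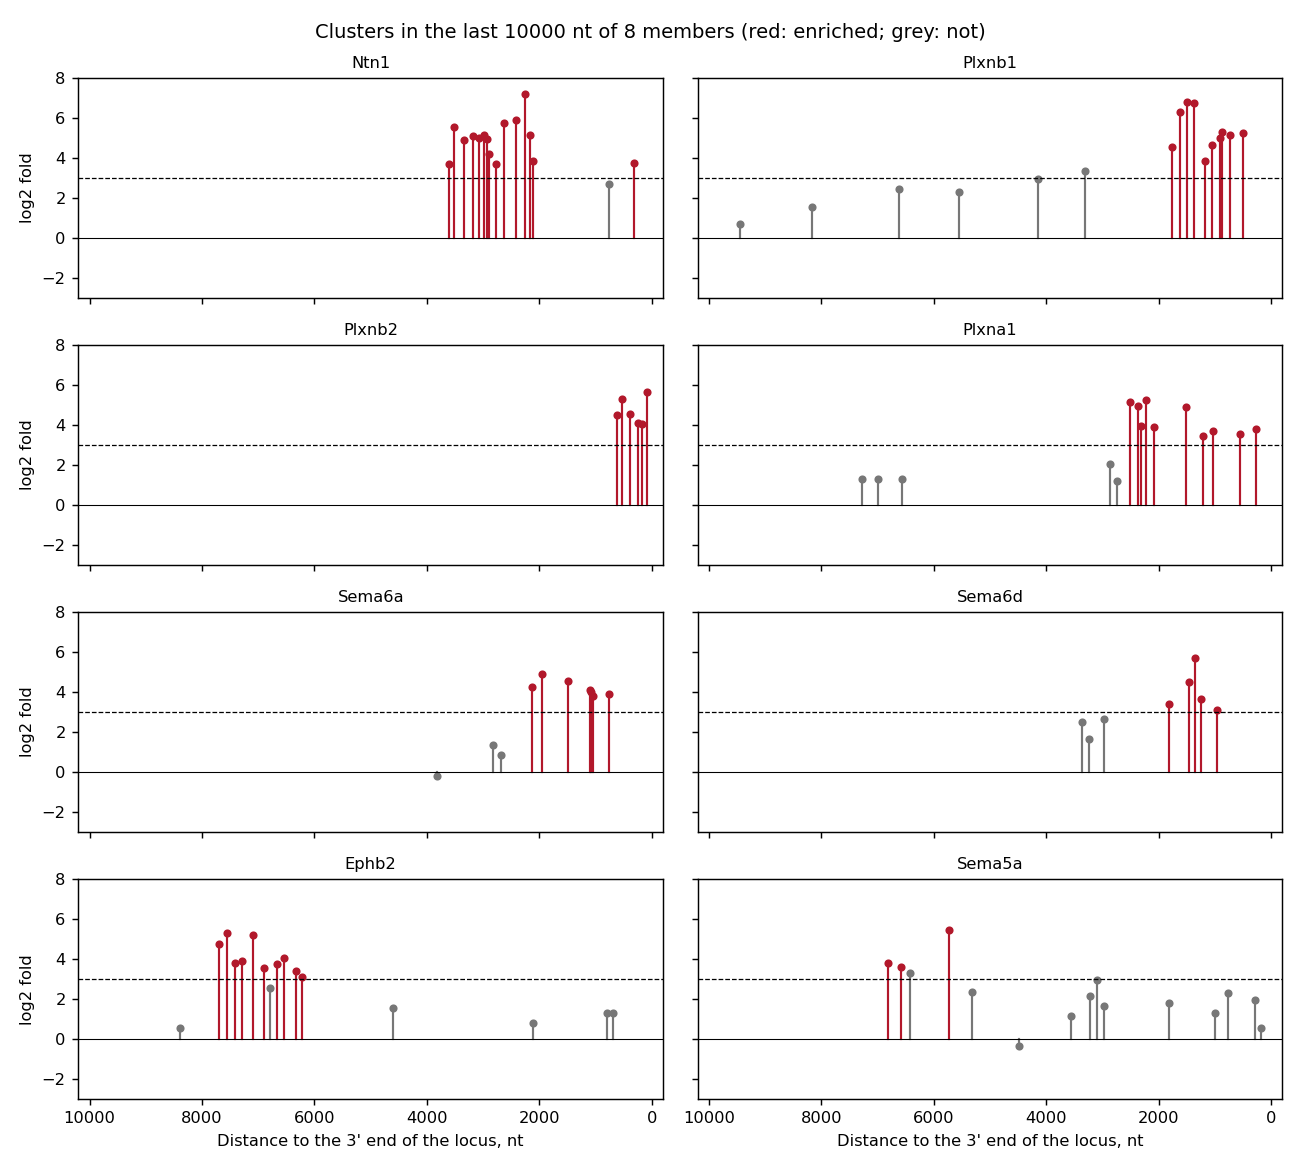
Log2 fold of each cluster (y axis) against its distance to the annotated 3′ end in nt (x axis, the end at the right) in the last 10000 nt of 8 members, red where enriched and grey where not. In Ntn1, Plxnb1, Plxnb2, Plxna1, Sema6a and Sema6d the enriched clusters lie within 3601 nt of the end, and in Ephb2 and Sema5a between 5734 and 7693 nt from it.

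By distance, the shares of the members were close to those of all protein-coding genes in the last 2000 nt and higher between 5000 and 20000 nt, where few genes held the enriched clusters. In the last 1000 nt 25 of 69 member clusters were enriched (36.2%, against 36.1% over all protein-coding genes), and between 1000 and 2000 nt 20 of 48 (41.7% against 40.2%). Between 2000 and 5000 nt the share was 22.3% against 28.3%. Between 5000 and 10000 nt it was 13 of 38, or 34.2% against 8.31%, and all 13 belonged to 2 genes, Ephb2 and Sema5a. Between 10000 and 20000 nt it was 2 of 50, or 4.0% against 1.62%, both in Epha5. Beyond 20000 nt it was 2 of 674, or 0.297% against 0.480%. That class held 69.3% of the members' clusters and 53.6% of all.

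**Figure D3:**
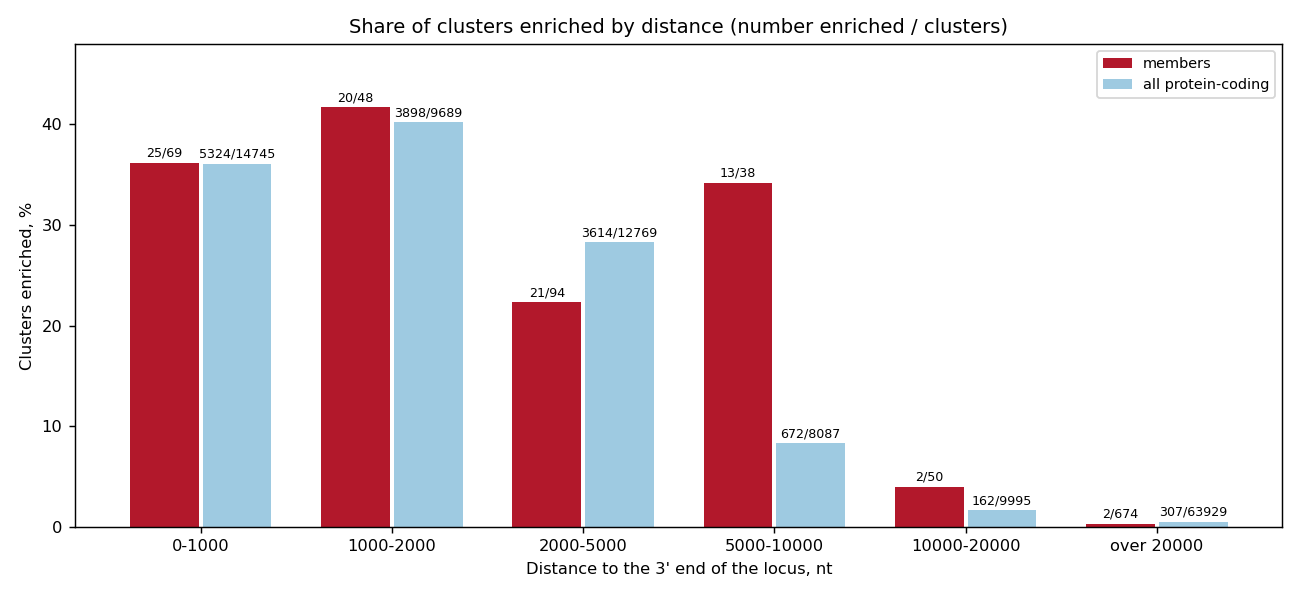
Percent of clusters enriched (y axis) by distance to the annotated 3′ end in nt (x axis), for the members (red) and for all protein-coding genes, members included (blue), with the number enriched over the number of clusters above each bar. The bars are alike up to 2000 nt and differ between 5000 and 10000 nt, 34.2% against 8.31%.

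**Figure D4:**
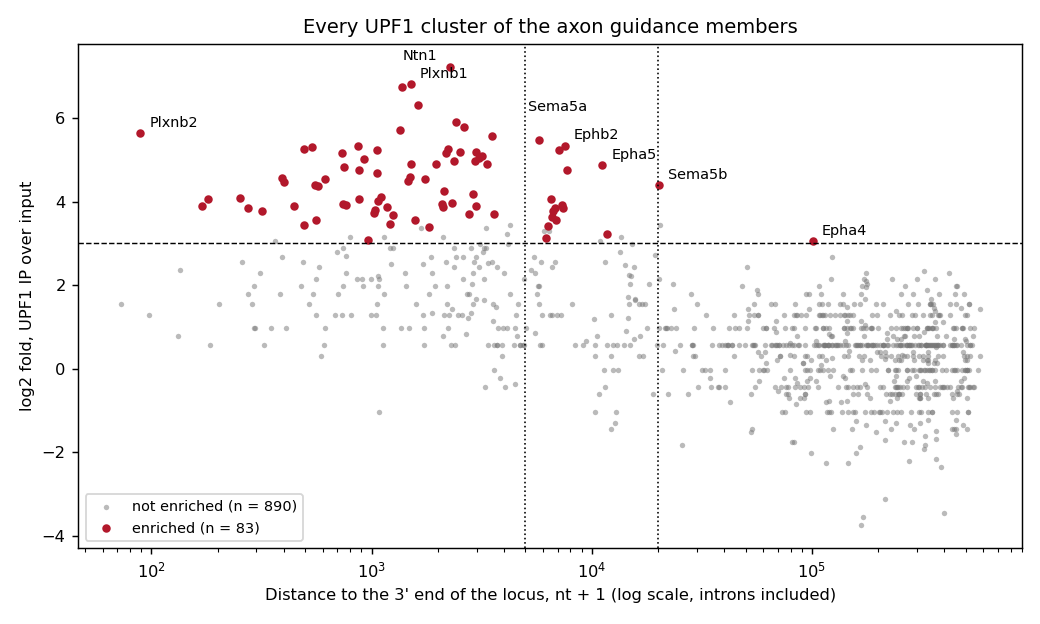
Log2 fold of the immunoprecipitate over input (y axis) against distance to the annotated 3′ end in nt plus 1 (x axis, log scale) for all 973 member clusters, with the 83 enriched in red. The dashed line marks the fold threshold of 3 and the dotted lines 5000 and 20000 nt, and the 2 red points past the second dotted line belong to Sema5b and Epha4.

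The calls rest on few input reads. Of the 82 enriched member clusters with rebuilt counts, 43 had an input count of 1. At that input the p threshold was met from 24 immunoprecipitate reads, the count in Nrp2, and missed at 22, the count in Plxna2. The members reached a fold of 3 without being called in 5 genes, Plxna2, Efnb2, Plxnd1, Sema4g and Sema6b, all with 17 to 22 reads against 1. The next below were Nrp1 at 2.88, Plxna3 at 2.78, Unc5c and Robo1 at 2.68 and Efnb1 at 2.56. With clusters at an input count of 1 left uncalled, 11 of the 47 members remained (23.4%, against 22.2% of all protein-coding genes under the same setting), and Nrp2, Plxnc1, Sema3a, Sema4b, Sema5a, Sema7a and Unc5a were lost. Enriched members were also longer loci with more clusters, a median of 124527 nt and 14.5 clusters against 40529 nt and 5 in the 29 not enriched. The part of length and cluster number in the calls was not tested.

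Partners and intracellular effectors of these receptors were counted on a list of 80 genes. The list was chosen with earlier results of these data known, so its share is a description and not a test. Of 69 with a cluster 39 were enriched (56.5%, interval 44.8 to 67.6), above the 34.9% of all protein-coding genes, with a median of 17 clusters per gene where all protein-coding genes had 6. The part of cluster number in this share was not tested. By clusters the list lay below the 11.7% of all, with 257 of 2581 or 9.96%. The highest fold was that of Rgma, a membrane-anchored ligand of the netrin receptor neogenin, at 7.64 from 405 reads against 1 (interval 5.15 to 12.94), with 20 of 30 clusters enriched. Dpysl3 and Dpysl2, collapsin response mediators downstream of semaphorins, reached 6.68 and 5.92, with 22 of 27 and 21 of 22 clusters enriched. Rac1, a GTPase that remodels actin, had 4 of 7 clusters enriched and tied with Dpysl2 at 5.92, each from 246 reads against 2.

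Arhgef12, an exchange factor for RhoA that binds B-class plexins, reached 6.55 with 14 of 77 clusters enriched. The kinase gene Gsk3b reached 6.48 with 17 of 55, Dock1, an activator of Rac, 6.48 with 5 of 57, and Srgap3, a GTPase-activating protein that binds Robos, 6.36 with 9 of 112. The GTPase gene Cdc42 reached 6.23 with 7 of 10. Dcc, the netrin receptor, had 430 clusters, the most of the list. None of these was enriched, and the highest reached 2.44. Pak3, a kinase activated by Rac and Cdc42, had 80 clusters without an enriched one and reached 3.44. Ssh2, a phosphatase of cofilin, reached 1.78 over 46 clusters, Ptk2, the focal adhesion kinase, 3.15 over 39, and Rock1, a kinase activated by RhoA, 2.37 over 36. Neo1, which encodes neogenin, was named after its values were seen: 8 of its 32 clusters were enriched, and it reached 5.66 from 103 reads against 1.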

How the data were processed

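The deposited file lists UPF1 clusters by position on mm10 and by strand, without a header. Per the submitters' processing notes, mm10 was the build, and STAR, cutadapt and UMI-tools were used. For the cluster caller and its filters, the sources used here give nothing. The values the authors deposited are a log2 fold of immunoprecipitate over input and a −log10 p, units taken from the values and the customary layout. The p is 0 wherever the fold is at or below 0.

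Of 123349 clusters, each went to the RefSeq locus (GRCm38.p6, the assembly of mm10) on its strand that covered most of its bases. This placed 113760 in a sole locus and 7152 among overlapping ones, and left 1184 undecided, 243 antisense and 1010 outside. Strands came from RefSeq start windows for 59 members. For 4, Ntn1, Plxna1, Plxna4 and Sema6a, they came from the clusters themselves (80% of at least 2). Same-strand counts there carry no information, and which end was taken as the 3′ end follows from the clusters. A further 5 had no strand.

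Read counts were rebuilt by taking the commonest fold as 3 reads against 1 (scale -1.02). They matched the deposited p (exact binomial under 5 reads, otherwise chi-square, within 0.05 or 1%) for 700 of 701 member clusters above 0. On simulated clusters with 12 or more reads, 99.7% of 1757 count pairs were recovered, with the true scale given. Smaller simulated clusters were left out of this share. The median member cluster above 0 that was not enriched, at 5 reads against 1, falls in the part left out. Python 3.11.15 and scipy 1.17.1 were used.

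The members and lists were chosen with earlier results of these data known. All 18 enriched members are given in full. Others named are those with the most clusters and none enriched (8 members and ties, 5 list genes), those within 0.5 of the fold threshold, and the 8 list genes with the highest fold and 1 tie; single values of the remaining members were added. Thresholds, assignment and merging were varied. No sequence of the 3′ clusters is shown, since no genome was used here.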

Additional observations from a re-analysis of the deposited data

Results flagged for a closer look

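An enriched cluster next to Ntn4, which encodes netrin-4, belongs to no annotated locus and so entered no count. It lay on chromosome 10 from 93746187 to 93746277, 215 nt past the annotated 3′ end of Ntn4 on the same strand. It held 24 immunoprecipitate reads against 1 input read, a log2 fold of 3.56. Of its neighbours, the touching cluster had a fold of 3.37, the one across the annotated end 3.06 and the one beyond 1.98, and none of the 3 passed the p threshold. Whether Ntn4 transcripts run past the annotated end was not tested.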

How the results depend on the processing

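The 18 enriched members stayed the same genes with a log2 fold threshold of 2, with clusters in 1 locus only, with clusters wholly inside the locus, with touching clusters merged, and with loci of unknown strand counted. The 18 made 37.5 to 39.1% of the members with a cluster under these settings, and all protein-coding genes gave 33.7 to 37.1%. A fold threshold of 4 left 14 members (29.8%, against 25% of all protein-coding genes), without Epha4, Nrp2, Sema3a and Unc5a. It also left 51 of 973 clusters, where 7.3% of all clusters on protein-coding genes were enriched. A −log10 p of at least 5 left 15 (31.9% against 26.7%), without Nrp2, Sema3a and Unc5a. Leaving clusters with an input count of 1 uncalled left 11 members (23.4% against 22.2%), 4 of them ligands, by construction of fewer callable clusters. It left 40 of 973 clusters, where 5.88% of all clusters on protein-coding genes were enriched. The median highest fold was 2.97 with clusters in 1 locus only and 2.83 with loci of unknown strand counted. It was 4.89 among clusters with a −log10 p of at least 3, and 1.30 when the median fold of each gene was taken. Over all protein-coding genes these settings gave 2.56, 2.56, 4.44 and 0.98 in the same order. The share of enriched clusters near the 3′ end was 54.2% within 2000 nt, 95.2% within 10000 nt and 90.4% without Ephb2, where all protein-coding genes gave 66.0%, 96.6% and 91.9%. The options without Ephb2, without Sema6d and with loci of unknown strand were chosen after seeing the data. No paired analysis was possible because there is 1 library of each kind and no result comes from a test. The low input counts limit the precision of every single fold.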

Other observations

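Of 8 microRNA hairpins that RefSeq places inside member loci, 7 lie on the strand of the gene, among them Mir218-1 in Slit2 and Mir218-2 in Slit3. Only the hairpin of Mir6352 in Epha4 was touched by a cluster, with a log2 fold of 0.56. A cluster across the annotated start of Ntn1, chromosome 11 from 68386814 to 68386948, lay mostly outside the locus and was not counted. Its log2 fold was 2.95 with a −log10 p of 5.14, just under the fold threshold.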
